A study of Mus musculus with 18 samples.

Results

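The genes described here are the nuclear genes of respiratory complex I and of its assembly, taken as every protein-coding gene in the deposited tables whose symbol begins with Nduf. The rule found 48 genes among the 27830 genes of the 3 tables, of which 40 carry subunit names and 8 are named as assembly factors (Ndufaf1 to Ndufaf8). Poly-A selected RNA of CD8+ T cells from mice was sequenced. The groups were cKO naive, WT naive, cKO effector, WT effector, cKO memory and WT memory cells, with 3 libraries each and 18 in all. cKO stands for a conditional knockout of GRP75, the mitochondrial Hsp70 chaperone encoded by Hspa9. Naive cells were taken from lymph nodes and spleen of mice aged 8 weeks, and effector and memory cells were derived from naive cells in culture. The labels name neither the Cre driver nor the deleted exons, and do not say whether the libraries of a group came from separate mice, so that the p-values measure the spread between these libraries, which may be technical.

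Complex I (NADH:ubiquinone oxidoreductase) is the entry point for electrons from NADH into the mitochondrial respiratory chain. Its N module oxidises NADH, its Q module passes the electrons to ubiquinone, and its membrane arm, with a proximal and a distal part, pumps protons. The core of the membrane arm is encoded by mitochondrial DNA and all other subunits by nuclear genes, and dedicated assembly factors, which are absent from the finished enzyme, help to join the modules. T cells enlarge their mitochondrial mass when they leave the resting state.

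Of the 40 genes with subunit names, 10 belong to the N module, 6 to the Q module, 9 to the proximal and 12 to the distal membrane arm. Ndufa4 and its paralogue Ndufa4l2 carry an Nduf name but Ndufa4 is a subunit of complex IV, and no module was given to Ndufb11b. Of the 48 genes, 47 were listed in the naive table, 46 in the effector and 48 in the memory table. In each subset 46 passed the filter, which asked for 10 or more normalised reads in 3 or more libraries. Ndufa4l2 and Ndufb11b were not tested, and no library held more than 5.84 normalised reads of either. A further 5 Nduf pseudogenes share sequence with Ndufa12, Ndufab1, Ndufb4, Ndufs5 and Ndufs6, so the reads of those parents are uncertain. Reads of Ndufaf3 and Impdh2, Ndufa3 and Tfpt, Ndufb6 and Smim27, and Ndufs1 and Eef1b2 lie on opposite strands of overlapping loci, and the strand setting of the counting is not given in the sources used here. These pairs are examples. Among other members, Ndufb11 overlaps Rbm10, Ndufb1 Cpsf2, Ndufb2 Braf and Ndufs3 Kbtbd4 on the opposite strand. Some overlap a gene on the same strand, such as Ndufa13 with Yjefn3 and Ndufc2 with Gm16053.

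The promoter windows of 6 members on which the results turn are shown: Ndufb7, Ndufb10 and Ndufs7 were lower in naive cKO cells, Ndufb1 and Ndufa8 were higher in WT effector cells and Ndufaf4 was lower there. Ndufs7 and Ndufa8 were added after the motif matches were seen, because they hold one, so the share of these windows with a match is set by the choice. Ndufb10 and Ndufb1 hold none of the 5 motifs searched. Each window runs from 250 bases before to 50 bases after the RefSeq start, on the gene's strand in build GRCm38.p6, which is not the build of the deposited tables. Capitals mark matches, on either strand, to CCGGAAG (the ETS factor motif, as in GABP), GCGCATGC (the core of the NRF1 motif) or AAGATGGC (YY1). All of these factors are known regulators of respiratory chain genes.
Ndufb7 (chr8:83566508-83566807, plus strand): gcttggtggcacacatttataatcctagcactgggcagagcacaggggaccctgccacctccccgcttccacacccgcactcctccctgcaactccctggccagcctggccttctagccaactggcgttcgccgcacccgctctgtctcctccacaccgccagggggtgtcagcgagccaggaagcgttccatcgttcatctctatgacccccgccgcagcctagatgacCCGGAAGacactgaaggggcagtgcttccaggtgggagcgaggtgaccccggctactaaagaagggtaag
Ndufs7 (chr10:80249199-80249498, plus strand): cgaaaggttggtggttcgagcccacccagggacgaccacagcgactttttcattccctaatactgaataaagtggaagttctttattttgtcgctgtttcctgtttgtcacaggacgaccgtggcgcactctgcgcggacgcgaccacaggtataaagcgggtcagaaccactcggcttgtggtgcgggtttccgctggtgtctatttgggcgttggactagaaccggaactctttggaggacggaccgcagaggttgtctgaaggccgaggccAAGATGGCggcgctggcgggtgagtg
Ndufa8 (chr2:36049289-36049588, minus strand): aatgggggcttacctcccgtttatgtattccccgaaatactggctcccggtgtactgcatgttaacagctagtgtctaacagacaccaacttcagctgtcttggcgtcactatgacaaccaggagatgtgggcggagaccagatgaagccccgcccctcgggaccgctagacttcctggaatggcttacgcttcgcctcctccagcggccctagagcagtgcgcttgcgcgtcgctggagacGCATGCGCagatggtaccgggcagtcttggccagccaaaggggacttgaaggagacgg
Ndufaf4 (chr4:24897833-24898132, plus strand): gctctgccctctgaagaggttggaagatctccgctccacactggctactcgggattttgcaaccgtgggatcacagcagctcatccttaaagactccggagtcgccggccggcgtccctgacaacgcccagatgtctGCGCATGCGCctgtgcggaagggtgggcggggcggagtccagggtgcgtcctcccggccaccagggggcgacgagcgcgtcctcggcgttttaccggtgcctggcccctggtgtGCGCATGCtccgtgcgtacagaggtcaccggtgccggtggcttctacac
Ndufb10 (chr17:24724374-24724673, minus strand): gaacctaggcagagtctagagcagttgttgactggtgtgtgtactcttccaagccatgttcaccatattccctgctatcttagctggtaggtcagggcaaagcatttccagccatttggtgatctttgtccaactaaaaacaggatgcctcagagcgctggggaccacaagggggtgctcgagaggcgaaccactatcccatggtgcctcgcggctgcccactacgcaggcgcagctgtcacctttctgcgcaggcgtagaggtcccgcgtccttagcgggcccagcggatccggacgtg
Ndufb1 (chr12:101975689-101975988, minus strand): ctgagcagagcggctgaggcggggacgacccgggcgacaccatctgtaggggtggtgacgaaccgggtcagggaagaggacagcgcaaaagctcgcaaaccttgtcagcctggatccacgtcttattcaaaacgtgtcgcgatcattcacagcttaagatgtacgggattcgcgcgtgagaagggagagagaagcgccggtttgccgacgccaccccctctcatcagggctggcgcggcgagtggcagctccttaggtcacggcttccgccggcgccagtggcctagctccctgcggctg

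Of the 48 genes, 41 had a promoter in the RefSeq table. AAGATGGC stood in 8 of the 41 (19.5%), against 3.19% of all 27025 genes with a promoter. GCGCATGC stood in 5 (12.2%), against 3.05% of all genes, and CCGGAAG in 6 (14.6%), against 9.93%. CACGTG, the E-box bound by MYC, stood in 2 (4.88%), against 8.09%, and TTGCATCA, an ATF4 and CEBP site, in 0 of 41, against 1.03%. Ndufaf4 held 3 matches to GCGCATGC, of which a pair overlap. Any of the 5 motifs stood in the first listed promoter of 20 of the 41, and in none of those of Ndufb3 and Ndufaf3, which were also lower in naive cKO cells. The YY1 motif with 1 base more, AAGATGGCG, stood in 6 of the 41 (14.6%), against 1.64% of all genes; the shorter form was taken after the search had begun. Motifs on opposite strands can overlap, base composition was not matched, and a match is a description of these letters, not a site.

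Between 14771251 and 18049774 reads per library were recovered from the deposited values. CD8 T cell markers were abundant throughout, with Cd8a at 1044.5 to 1669.4 CPM (reads scaled to the library total) in cKO and 1321.2 to 1791.9 in WT libraries. Hspa9 was higher in the libraries labelled cKO in every subset, at a mean of 6438.4 normalised reads in naive cKO and 3992.1 in naive WT libraries, 2339.9 in effector cKO and 2093.1 in effector WT libraries, and 5636.5 in memory cKO and 4040.8 in memory WT libraries. Gene-level counts do not show whether those reads come from the deleted exons, so Hspa9 goes against the label at this level and the directions below are those between libraries labelled cKO and WT. In effector cells its call (adjusted p = 0.0335 by limma) was lost in a fit of all 18 libraries (adjusted p = 0.0988).

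In WT naive cells the level per kilobase of gene length was highest for Ndufa2, with 936.7 TMM-scaled reads per kilobase, and Ndufb11 with 919.7, and lowest for Ndufb2 with 25.3 and Ndufaf2 with 22.3. The length is the deposited one, 572 bases for Ndufa2 and 5628 for Ndufb2. It need not be that of the transcript the cells make, so these places depend on it. The assembly factors ranged from the lowest place of 46 to place 29, held by Ndufaf4 with 176.6 reads per kilobase. Summed over their members, the 40 genes with subunit names took 1466 ± 146 CPM in WT naive libraries and the 8 assembly factors 115.4 ± 6.34 (SD, n = 3).

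Complex I subunit transcripts were mostly higher in WT effector than in WT naive cells, and assembly factors were mixed. Of 38 subunit-named genes tested, 25 were higher and 4 lower in WT effector than in WT naive cells, with a median log2 fold change of 0.42. Of 8 assembly factors 1 was higher and 2 were lower, with a median of 0.02. Among all 14773 genes tested 35.2% were higher and 34.6% lower, with a median of -0.01. For all 46 Nduf genes the counts were 26 higher and 6 lower, so the share called (69.6%) was near that of all genes while its direction was not. These tests used limma on log2(TMM-scaled reads + 1) of the 9 WT libraries, with Benjamini-Hochberg adjustment over all genes and a threshold of 0.05. With edgeR 25 subunit-named genes were higher and 4 lower, and with DESeq2 26 and 4. The difference between subunits and assembly factors was not tested.

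By module, the share of genes that rose was largest in the proximal membrane arm and smallest in the Q module. In the proximal arm 8 of 9 genes were higher and 0 lower (median 0.66), and in the distal arm 8 of 12 were higher and 2 lower (median 0.57). In the N module 6 of 10 were higher and 0 lower (median 0.29), and in the Q module 2 of 6 were higher and 2 lower (median 0.03). The counts of 0 lower held for the proximal arm and the N module at an unadjusted limma p under 0.05 and with edgeR and DESeq2. Across modules, the 30 supernumerary subunits tested had a median of 0.47 and the 7 core subunits of 0.14.

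Ndufb11, a distal arm subunit encoded on the X chromosome, had 1287.2, 1327.7 and 1276.7 TMM-scaled reads in WT effector libraries, against 845.5, 783.8 and 792.7 in WT naive libraries. All effector libraries lay above all naive ones, and it rose by 0.68 on the log2 scale (SE 0.06, limma adjusted p = 4.66e-08). Ndufa8, a proximal arm subunit with twin cysteine motifs, had 885.9, 930.6 and 973.9 reads in effector libraries, against 571.4, 484.4 and 484.2 in naive libraries. It rose by 0.86 on the log2 scale (SE 0.09, adjusted p = 4.45e-07) with no overlap.

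Ndufa13, also known as GRIM-19, had 1049.6, 1108.7 and 1108.3 reads in WT effector libraries, against 649.8, 571.8 and 637.0 in WT naive libraries. The groups did not overlap and the log2 fold change was 0.81 (SE 0.09, limma adjusted p = 2.67e-07). The iron-sulfur subunit Ndufs8 of the Q module averaged 776.7 ± 30.7 reads in effector and 474.2 ± 44.7 in naive libraries (SD, n = 3 each), and Ndufs4 of the N module 870.2 ± 44.5 in effector and 528.5 ± 37.2 in naive libraries. Both rose without overlap, by 0.71 and 0.72. Ndufb1, a distal arm subunit, had the highest log2 fold change of the 46, 1.40 (SE 0.20). It had 487.9, 507.7 and 484.4 reads in effector libraries and 234.4, 126.4 and 217.0 in naive libraries. It was named after its values were seen, as were the genes of the Q module below.

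Some members went the other way. Ndufaf4, an assembly factor of the early intermediates, had 273.9, 273.7 and 271.8 TMM-scaled reads in WT effector libraries, against 663.4, 650.8 and 684.2 in WT naive libraries. It fell by 1.28 on the log2 scale (SE 0.08, limma adjusted p = 3.65e-10), the lowest value of the 46, and the groups did not overlap. Ndufaf6, another assembly factor, had 46.0, 64.4 and 35.1 reads in effector libraries and 79.4, 82.7 and 98.5 in naive libraries, and fell by 0.86 (SE 0.22, adjusted p = 0.00229). Ndufaf2, which acts late in assembly, was the assembly factor that rose, at 105.7 ± 10.5 reads in effector and 64.1 ± 11.1 in naive libraries (SD, n = 3 each), by 0.72 (SE 0.19).

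The subunits that fell were Ndufab1, the mitochondrial acyl carrier protein, Ndufb2, and the core Q-module subunits Ndufs3 and Ndufs7. Ndufab1 averaged 287.8 ± 20.6 reads in WT effector and 450.0 ± 61.4 in WT naive libraries, and Ndufb2 83.7 ± 9.27 in effector and 137.5 ± 21.4 in naive libraries (SD, n = 3 each). Their log2 fold changes were -0.64 and -0.70 with no overlap. Ndufs3 and Ndufs7 fell by 0.27 each, while Ndufs8 of the same module rose. The call of Ndufs3 was lost without WT naive replicate 1 (limma adjusted p = 0.0672) and without WT effector replicate 3 (0.0565).

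**Figure D1:**
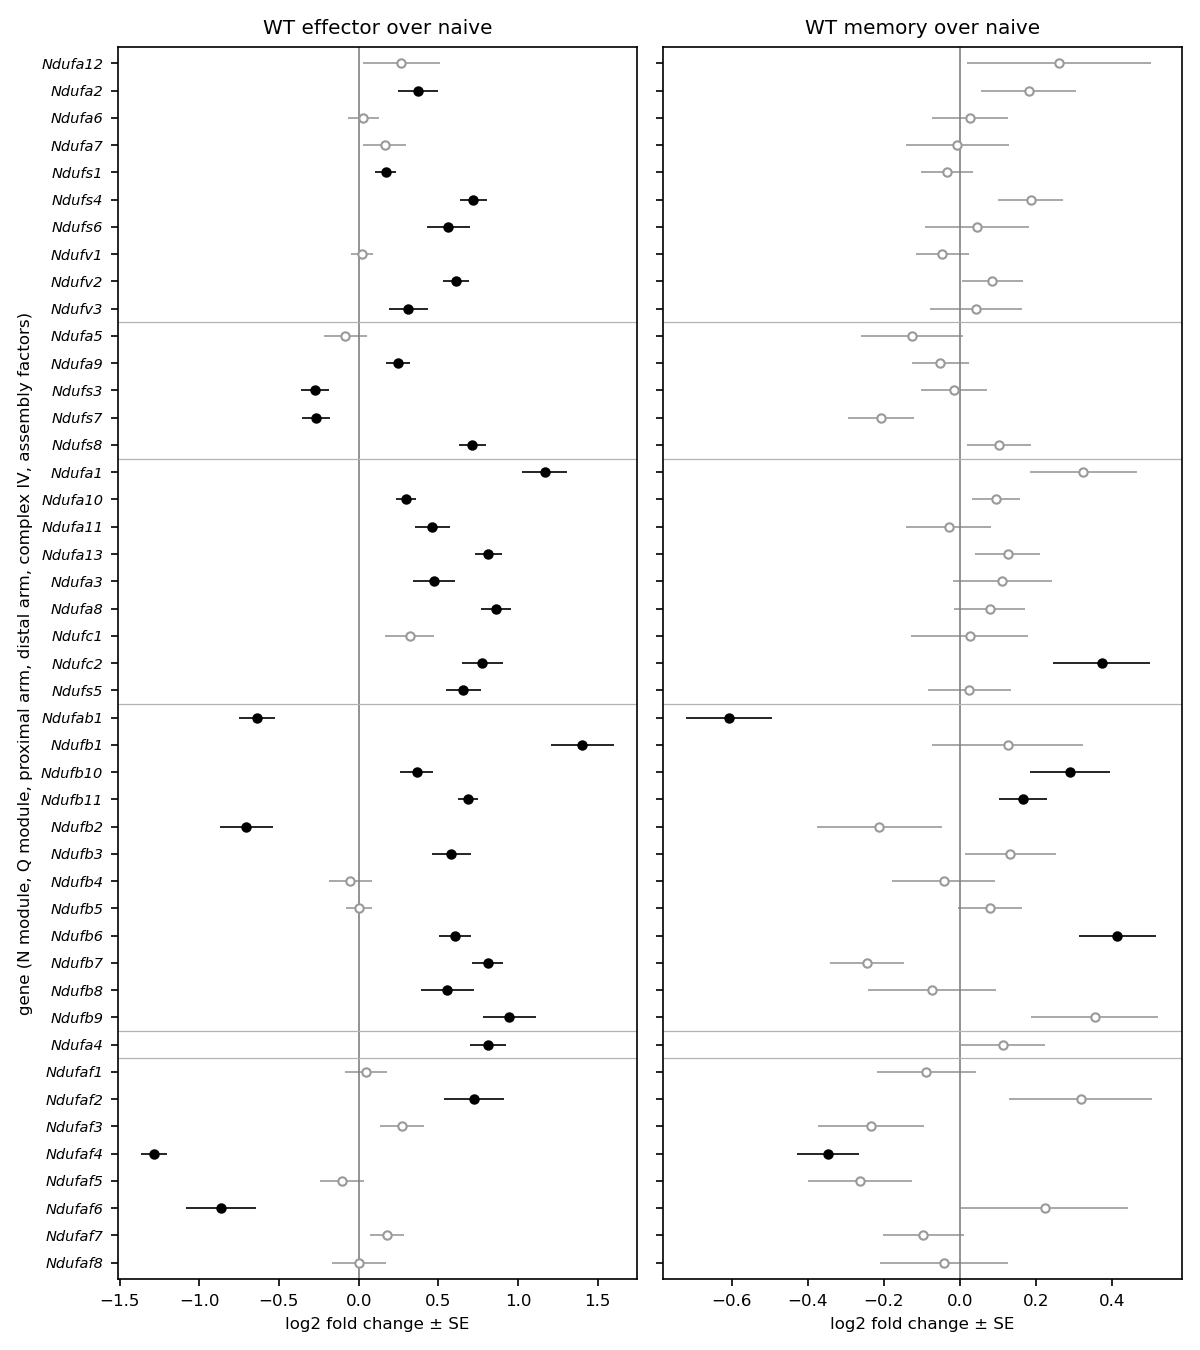
Log2 fold change of 45 of the 46 tested Nduf genes between WT subsets, with effector over naive on the left and memory over naive on the right; points are limma estimates, bars 1 SE, filled points genes with adjusted p under 0.05, and grey lines separate the modules. On the left 26 genes are called higher and 6 lower, and on the right 4 and 2.

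Few Nduf genes were called between WT memory and WT naive cells. Of 46 genes 4 were higher (Ndufb6, Ndufc2, Ndufb10 and Ndufb11) and 2 lower (Ndufab1 and Ndufaf4) in memory than in naive cells, against 20.9% of all 14773 genes higher and 16.6% lower. With edgeR and DESeq2 3 were higher and 2 lower, and Ndufb11 was not called (adjusted p = 0.0548 with edgeR and 0.0671 with DESeq2). With library totals neither Ndufb10 nor Ndufb11 was called (limma adjusted p = 0.0741 and 0.136), and leaving out 1 library lost the call of Ndufb10 in 4 and of Ndufb11 in 5 of 6 fits. Ndufc2 had 374.4, 578.5 and 471.4 TMM-scaled reads in WT memory libraries, against 392.2, 324.5 and 368.7 in WT naive libraries, so its groups overlapped. Its call was lost without WT memory replicate 2 or 3, and without WT naive replicate 2 or 3. Against WT effector cells 4 were higher and 24 lower in WT memory cells, with 32.2% of all genes higher and 31.5% lower. The 4 that were higher in memory than in effector cells were Ndufaf4, Ndufaf6, Ndufb2 and Ndufs3. The calls of Ndufb2 and Ndufs3 were each lost in 2 of 6 fits without 1 library. These comparisons share the libraries of each subset.

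Ndufb7 had 491.3, 664.4 and 521.4 reads in WT memory libraries, against 1199.4, 1153.8 and 1099.2 in WT effector libraries, and fell by 1.05 on the log2 scale (SE 0.10, limma adjusted p = 8.04e-08). These groups did not overlap. Ndufaf4 had 532.0, 557.1 and 484.4 reads in memory libraries, against 273.9, 273.7 and 271.8 in effector libraries, and rose without overlap by 0.94 (SE 0.08, adjusted p = 3.07e-08). Ndufab1 was low in memory libraries too, at 294.1 ± 26.5 reads against 450.0 ± 61.4 in naive libraries (SD, n = 3 each), with a log2 fold change of -0.61 and adjusted p = 0.000438.

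Subunits of the other respiratory complexes moved in the same direction as the complex I subunits in WT effector cells. Of 38 nuclear genes of complexes II to V, 35 were higher and 0 lower than in WT naive cells (median 0.62), as at an unadjusted limma p under 0.05 and with edgeR (DESeq2 34 and 0). The 7 complex I genes of mitochondrial DNA gave 0 higher and 5 lower (median -0.28). Of 12 assembly factors without an Nduf name, 2 were higher and 4 lower (median -0.19). All 10 proliferation genes, such as Mki67, were higher in effector cells (median 4.66). Markers of other cell types moved as well. All 9 myeloid genes tested were higher (summed 107.3 to 118.1 CPM in WT effector libraries, against 4.78 to 5.22 in WT naive libraries), as were 3 of 4 erythroid genes (14.5 to 16.4 in effector, against 0.189 to 11.2 in naive). Most of the myeloid sum in WT effector libraries came from Itgam (65.7 to 77.2 CPM) and Cd68 (17.5 to 19.9), while Lyz2 was at 9.14 to 10.4. Of 5 CD4 T cell markers 4 were higher and 1 lower (142.2 to 147.7 in effector, against 57.4 to 66.2 in naive). Of 11 B cell markers 8 were higher and 2 lower, with a lower sum (227.6 to 231.5 in effector, against 446.0 to 484.6 in naive). In WT memory against WT naive cells 10 of 11 B cell markers (795.8 to 868.6 in memory), 9 of 9 myeloid and 4 of 4 erythroid genes, 4 of 5 CD4 T cell markers and 9 of 10 proliferation genes were higher. The part of these lists in the Nduf values was not tested.

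In naive cells the Nduf genes that differed between genotypes were all lower in cKO libraries. Of 46 tested, 8 were lower and 0 higher. The share called, 17.4%, was below the 24.9% of all 13885 genes, of which 11.9% were lower and 12.9% higher. The log2 fold change was below 0 for 42 of the 46. The median was -0.24 for subunit-named genes, -0.10 for assembly factors and -0.01 for all genes. Of the subunit-named genes 7 of 38 were lower, and of the assembly factors 1 of 8. The genotype effects in each subset were fitted by limma to the 6 libraries of that subset, as log2(normalised reads + 1). At an unadjusted limma p under 0.05, 18 of 46 were lower and 0 higher, and by edgeR and DESeq2 the adjusted counts were 8 and 9 lower and 0 higher.

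The lower subunits came from 3 of the modules. The Q module gave 2 of 6 lower (median -0.29), the distal arm 3 of 12 (median -0.20), the proximal arm 1 of 9 (median -0.27) and the N module 0 of 10 (median -0.18), and Ndufa4 of complex IV made up the 7. In the N module 3 were lower at an unadjusted limma p under 0.05, and 0 with edgeR and DESeq2.

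Ndufs7, the core subunit that holds the last iron-sulfur cluster before ubiquinone, had 546.5, 559.9 and 466.7 normalised reads in naive cKO libraries, against 694.8, 735.8 and 596.3 in naive WT libraries. The groups did not overlap, and it fell by 0.36 on the log2 scale (SE 0.10, limma adjusted p = 0.0251).

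Ndufb7, a distal arm subunit, had 559.4, 525.9 and 463.7 normalised reads in naive cKO libraries, against 759.1, 659.1 and 723.9 in naive WT libraries. It fell by 0.47 (SE 0.09, limma adjusted p = 0.00405) with no overlap. Ndufb10 of the same arm had 870.9, 843.8 and 568.1 reads in cKO and 1210.4, 886.2 and 1221.0 in WT libraries, and Ndufb3 385.5, 391.7 and 309.1 in cKO and 567.2, 398.7 and 592.0 in WT libraries. For both genes WT replicate 2 lay just above the cKO libraries and far below the other WT libraries. Their log2 fold changes were -0.55 (SE 0.16, adjusted p = 0.0295) and -0.51 (SE 0.15, adjusted p = 0.0298).

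Ndufaf3, an assembly factor for the Q module, was the 1 assembly factor called. It had 105.9, 131.2 and 123.4 normalised reads in naive cKO libraries, against 178.2, 174.6 and 160.3 in naive WT libraries, and fell by 0.51 (SE 0.14, limma adjusted p = 0.0199). The groups did not overlap. Its locus overlaps that of Impdh2 on the other strand.

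Ndufa3, a proximal arm subunit, and Ndufa4 passed the threshold although their groups overlapped. Ndufa3 had 440.6, 447.2 and 325.2 normalised reads in naive cKO and 647.3, 431.0 and 670.5 in naive WT libraries (log2 fold change -0.51, limma adjusted p = 0.0462). Ndufa4 had 772.0, 714.5 and 571.1 reads in cKO and 1084.9, 752.9 and 949.5 in WT libraries (-0.43, adjusted p = 0.0402). In both cases it was WT replicate 2 that lay among the cKO libraries. When 1 library was left out, the call of Ndufa3 was kept only without WT replicate 2. That of Ndufa4 was kept only without WT replicate 2 or cKO replicate 1. With a replicate block Ndufa3 was not called.

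The naive count depended on single libraries. It was 18 without WT replicate 2, 2 without WT replicate 1, 4 without WT replicate 3, 5 without cKO replicate 1 and 3 without cKO replicate 3. The calls of Ndufs7 and Ndufb10 were each lost in 3 of 6 fits without 1 library. That of Ndufb3 was lost in 4 and that of Ndufaf3 in 2, while that of Ndufb7 was lost in 0. Summed over the 48 genes, CPM were 1516.1, 1503.2 and 1332.5 in naive cKO libraries and 1722.5, 1420.9 and 1599.4 in naive WT libraries, so the groups overlapped.

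**Figure D2:**
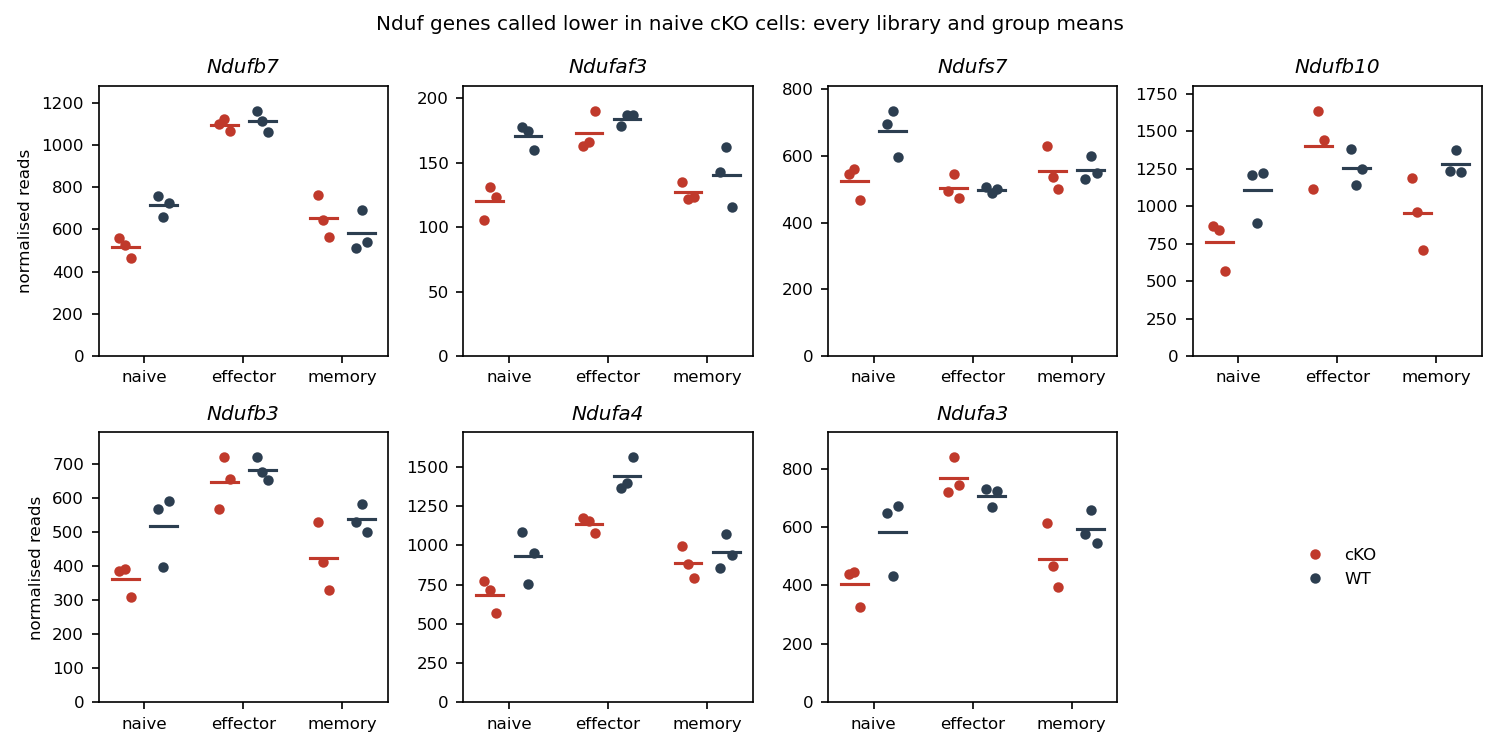
Normalised reads of 7 of the 8 Nduf genes called lower in naive cKO cells, in every library of the 3 subsets; each point is 1 library, bars are group means, cKO is red and WT dark blue. In naive cells the groups of Ndufb7, Ndufaf3 and Ndufs7 are apart, while 1 WT library of Ndufb10, Ndufb3, Ndufa4 and Ndufa3 lies near or among the cKO libraries; values are scaled within each subset, so heights do not compare across subsets.

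Other differences between the naive libraries stand beside these values. Xist was at 4626.6, 4549.3 and 4109.0 normalised reads in cKO and 16842.7, 14705.5 and 17631.5 in WT libraries, and Ddx3y, a Y-linked gene, at 3056.0, 2894.9 and 2771.1 in cKO and 0 in all 3 WT libraries. The sexes in the naive pools and the genotype therefore cannot be told apart. Of 10 proliferation genes 7 were higher in cKO (summed 627.4 to 660.2 CPM in cKO, against 355.8 to 361.2 in WT), and 4 of 4 tested gamma-delta T cell markers were higher (summed 50.6 to 59.6 CPM in cKO, against 9.36 to 11.1 in WT). CD8 T cell markers summed to 7145 to 7351 CPM in cKO and 7997 to 8269 in WT libraries, with 8 of 12 lower. CD4 T cell markers summed to 104.4 to 121.9 CPM in cKO and 57.4 to 66.2 in WT libraries, with 4 of 5 higher, and B cell markers to 370.6 to 409.6 in cKO and 446.0 to 484.6 in WT libraries, with 4 of 7 higher and 2 lower. In bulk RNA, fewer cells of a type and less RNA per cell cannot be told apart. The part of these markers in the Nduf values was not tested.

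In effector cells 4 of 46 Nduf genes were lower in cKO than in WT libraries and 0 were higher, against 9.37% of all 13815 genes lower and 10.7% higher. The share called, 8.7%, was thus no larger than that of all genes. At an unadjusted limma p under 0.05, 9 were lower and 1 higher, and edgeR and DESeq2 gave 4 lower and 0 higher. The median was -0.05 for subunit-named genes and -0.01 for assembly factors, of which 0 of 8 were called, also at an unadjusted p and with edgeR and DESeq2.

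Ndufa4 had 1173.9, 1155.5 and 1077.6 normalised reads in effector cKO libraries, against 1364.5, 1395.1 and 1562.3 in effector WT libraries, and fell by 0.34 (SE 0.06, limma adjusted p = 0.000344) with no overlap. Ndufab1 had 203.9, 222.6 and 227.1 reads in cKO and 301.1, 274.0 and 260.7 in WT libraries, and fell by 0.35 (SE 0.10, adjusted p = 0.0186), again with no overlap. Ndufs1, the largest core subunit of the N module, averaged 1263.8 ± 15.8 in cKO and 1425.4 ± 40.9 in WT libraries, and Ndufb11 1116.9 ± 36.8 in cKO and 1255.7 ± 25.7 in WT libraries (SD, n = 3 each). Both fell by 0.17 with no overlap, at adjusted p = 0.0175 and 0.0266. Leaving out 1 library lost the call of Ndufs1 in 4, of Ndufb11 in 5, of Ndufab1 in 2 and of Ndufa4 in 0 of 6 fits. In a fit of all 18 libraries Ndufab1 alone was called, and Ndufa4 was not (limma adjusted p = 0.0783). The effector count was 1 in a fit of all 18 libraries, 1 without WT replicate 1, 2 without WT replicate 3 and 2 without cKO replicate 2. All 10 proliferation genes were lower in effector cKO libraries (summed 2726 to 2820 CPM in cKO, against 3740 to 3880 in WT) and all 7 erythroid genes higher (99.6 to 103.1 in cKO, against 14.5 to 16.4 in WT). Of 5 gamma-delta T cell markers tested 4 were higher (summed 65.1 to 67.5 CPM in cKO, against 10.6 to 12.5 in WT), and 6 of 10 myeloid genes were higher and 1 lower (136.2 to 151.0 in cKO, against 107.3 to 118.1 in WT). CD8 T cell markers gave 1 of 12 higher and 4 lower (7766 to 8062 in cKO, against 8636 to 8773 in WT), B cell markers 2 of 11 higher and CD4 T cell markers 1 of 5 higher and 1 lower. Xist was lower (12387.5 to 12847.8 normalised reads in cKO, against 13695.7 to 14929.6 in WT). Their part in the Nduf values, the X-linked Ndufb11 included, was not tested.

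In memory cells 1 of 46 Nduf genes was lower and 0 were higher in cKO than in WT libraries, against 7.0% of all 14622 genes lower and 12.1% higher. The medians were -0.11 for subunit-named genes and -0.10 for assembly factors, beside -0.02 for all genes. Without 1 library the assembly factor median ran between -0.157 and 0.0072, so its sign turned, and the subunit median between -0.185 and -0.0262. At an unadjusted limma p under 0.05, 3 were lower and 0 higher, and edgeR and DESeq2 gave 1 lower and 0 higher. Ndufb6, a distal arm subunit, had 331.0, 302.7 and 271.7 normalised reads in memory cKO libraries, against 369.5, 424.2 and 363.4 in memory WT libraries, and fell by 0.35 (SE 0.11, limma adjusted p = 0.0451) with no overlap. Under DESeq2, with no filter on low values and with a replicate block the adjusted p of Ndufb6 was 0.055, 0.0529 and 0.0754, and Ndufb10 was called in its place. Ndufb10 had 1185.8, 964.8 and 711.1 reads in memory cKO and 1237.9, 1377.2 and 1228.8 in memory WT libraries (log2 fold change -0.45, adjusted p = 0.0506). Without cKO replicate 1 the count was 9, and without any other single library it was 0. All 10 myeloid genes were higher in memory cKO libraries (summed 264.8 to 361.0 CPM in cKO, against 28.6 to 33.2 in WT), as were 5 of 5 tested gamma-delta T cell markers (129.1 to 162.8 in cKO, against 20.8 to 21.5 in WT). Of 11 B cell markers 8 were higher (1431 to 1704 CPM in cKO, against 795.8 to 868.6 in WT), and of 7 erythroid genes 5 (60.7 to 76.6 in cKO, against 23.4 to 32.3 in WT). Of 12 CD8 T cell markers 4 were lower (6191 to 7204 in cKO, against 7320 to 7910 in WT), of 5 CD4 T cell markers 2 were higher and 1 lower (138.7 to 155.9 in cKO, against 248.9 to 263.8 in WT), and of 10 proliferation genes 3 were higher. The part of these lists in the Nduf values was not tested.

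**Figure D3:**
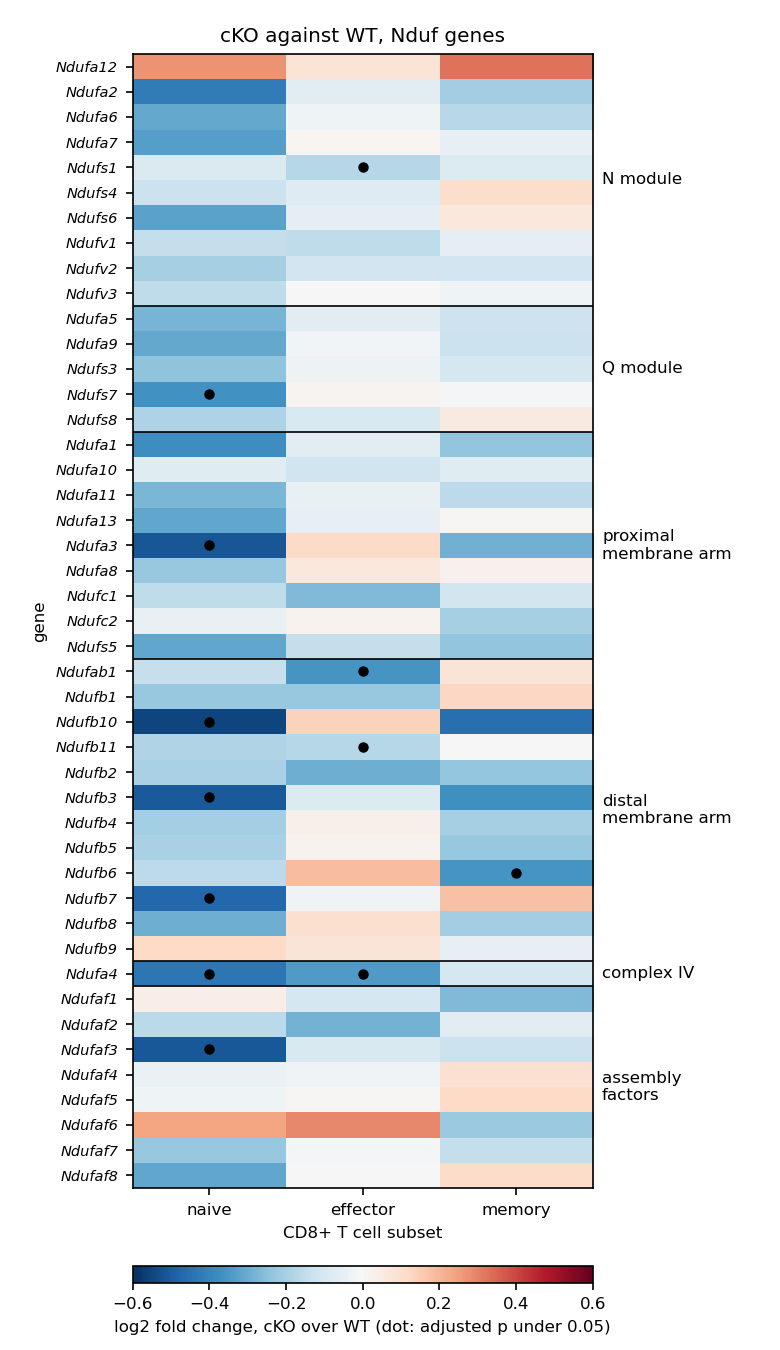
Log2 fold change of cKO over WT for 45 of the 46 tested Nduf genes in naive, effector and memory cells, grouped by module; blue is lower and red higher in cKO, and a dot marks adjusted p under 0.05. The naive column is blue for 41 of 45 genes and carries 7 dots, the effector column 4 and the memory column 1.

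Tests of the difference of the genotype effect between subsets were made in 1 limma fit of all 18 libraries. The effect was higher in effector than in naive cells for 4 of 46 Nduf genes and lower for 0, against 8.81% of all 15694 genes higher and 9.69% lower. Among them were Ndufb10 with a difference of 0.69 (SE 0.24, adjusted p = 0.0493), Ndufa3 with 0.63 (SE 0.22, adjusted p = 0.0481) and Ndufb7 with 0.45 (SE 0.15, adjusted p = 0.0442). At an unadjusted limma p under 0.05, 7 were higher and 0 lower, and edgeR called 4 higher and 0 lower. With TMM scaling in limma 0 of 46 passed the threshold, and with a replicate block Ndufb10 did not (adjusted p = 0.0507). Leaving out 1 library lost the call of Ndufb10 in 8, of Ndufa3 in 9 and of Ndufb7 in 10 of 12 fits. Ndufb7 also differed between memory and naive cells (1 higher and 0 lower of 46, against 7.89% and 9.0% of all genes), by 0.65 (SE 0.15, adjusted p = 0.00519). Between memory and effector cells 0 were higher and 1, Ndufb6, was lower, against 4.75% and 3.96% of all genes, by -0.54 (SE 0.16, adjusted p = 0.0424). That call was lost with TMM scaling (adjusted p = 0.0535), with a replicate block (0.0573) and in 10 of 12 fits without 1 library. For the assembly factors 0 of 8 passed in any of these comparisons, also with edgeR, and the lowest adjusted p was 0.136 for Ndufaf3, effector minus naive. These comparisons share libraries with each other. The Y-linked genes Ddx3y, Eif2s3y, Kdm5d and Uty had reads in the naive cKO libraries, were at 0 in the naive WT libraries and are not listed in the effector and memory tables used here, so a difference against naive cells and the sex difference of the naive libraries cannot be told apart.

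Complex I subunits of mitochondrial DNA were mostly lower in cKO libraries of naive and memory cells. In naive cells 6 of the 7 were lower and 1 higher in cKO libraries (median -1.35), in effector cells 0 were lower and 3 higher (median 0.09), and in memory cells 6 were lower and 0 higher (median -0.68). mt-Nd5, a proton-pumping core subunit, had 11086.3, 11367.5 and 9592.9 normalised reads in naive cKO libraries, against 34905.1, 28522.7 and 37069.3 in naive WT libraries, with no overlap, and fell by 1.64 (SE 0.10, limma adjusted p = 4.83e-07). The exception in naive cells was mt-Nd3, with 252.2, 285.8 and 170.6 reads in cKO and 146.5, 136.3 and 139.5 in WT libraries, which rose by 0.71 (SE 0.17, adjusted p = 0.0125). In poly-A libraries the capture of mitochondrial transcripts varies with their tails, and levels of these genes were not compared with each other. The difference between nuclear and mitochondrial genes was not tested.

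The nuclear genes of complexes II to V had a median close to that of the Nduf subunits in naive cells (-0.24), but a larger share was called. Of 38, 14 were lower (36.8%) and 0 higher in cKO libraries, against 18.4% of the subunit-named Nduf genes and 11.9% of all genes lower. At an unadjusted limma p 24 were lower and 0 higher, and 13 were lower with edgeR and 14 with DESeq2. Among the lower genes were Uqcrh, the hinge subunit of complex III, with -0.78 (SE 0.10, limma adjusted p = 0.000251), and Cox4i1, a regulatory subunit of complex IV, with -0.46 (SE 0.08, adjusted p = 0.00161). In effector cells 1 was higher and 2 lower (median -0.06), and in memory cells 0 higher and 1 lower (median -0.06). Of 12 complex I assembly factors without an Nduf name, 2 were lower in naive cKO libraries (16.7%, against 11.9% of all genes). These were Tmem126b with -0.45 (limma adjusted p = 0.00809) and Dmac1 with -0.44 (adjusted p = 0.00916). In effector cells 0 of the 12 were called (3 lower at an unadjusted limma p, 0 with edgeR and DESeq2), and in memory cells Aifm1, a partner of the import factor Chchd4, was lower (-0.29, adjusted p = 0.027). Mitochondrial chaperones gave 1 of 11 higher in naive cells, Hspa9 itself, and 0 lower. They gave 1 higher and 1 lower in effector cells, and 1 higher and 1 lower in memory cells. Of 13 iron-sulfur assembly genes 0 were called in naive cells (1 higher and 1 lower at an unadjusted limma p, 0 with edgeR and DESeq2). Of 12 tested, 1 was higher and 0 lower in effector cells, and 0 were higher and 1 lower in memory cells (0 with DESeq2). Among all genes tested, 12.9% were higher and 11.9% lower in naive cells. In effector cells these shares were 10.7% and 9.37%, and in memory cells 12.1% and 7.0%.

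**Figure D4:**
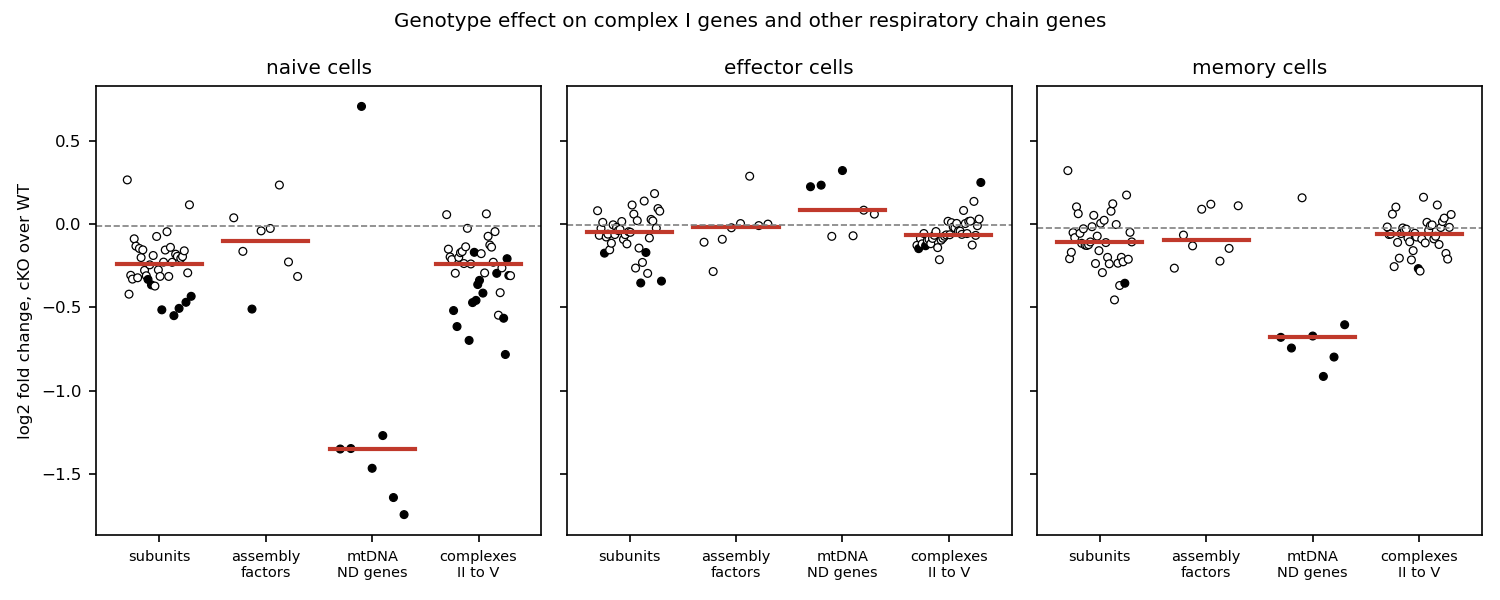
Log2 fold change of cKO over WT for 38 subunit-named Nduf genes, 8 assembly factors, 7 mitochondrial DNA (ND) genes and 38 nuclear genes of complexes II to V in each subset; each point is 1 gene, filled where adjusted p is under 0.05, red bars are medians and the dashed line is the median of all genes tested. The ND median is -1.35 for naive, 0.09 for effector and -0.68 for memory libraries, and the nuclear groups lie nearer to the dashed line.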

How the data were processed

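RNA of 18 libraries of mouse CD8+ T cells was sequenced after poly-A selection. Per the submitters' processing notes, fastp, HISAT2 2.2.1, featureCounts 2.0.6, DESeq2 1.42.0 and build GRCm39 were used; the order, settings, annotation and strand setting are not given in the sources used here. The authors deposited 1 table per subset, holding for each gene a signal value in every library, a log2 fold change of WT over cKO and a p-value; neither of the last was used. All values (100%, tolerance 1e-05) were multiples of the worth of 1 read, so reads were recovered as value over worth, 14771251 to 18049774 per library. Size factors were set per table, so WT subsets were compared on recovered reads scaled by TMM.

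Genes reaching 10 normalised reads in 3 or more libraries were tested with limma 3.58.1 (R 4.3.3, trend) on log2(value + 1), with Benjamini-Hochberg adjustment over all genes and a threshold of 0.05. Genotype effects used each subset's 6 libraries, and interactions all 18 on the 20825 genes in all 3 tables. Alternatives were edgeR 4.0.16, DESeq2, a pseudocount of 5, no filter, other scaling, 1 fit of all 18 libraries, a replicate block and leaving out each library. The fits were tested on simulated data. Members and lists were chosen with earlier results of these data known. Named genes were up to 8 called members per direction (5 for interactions and WT subsets) of smallest adjusted p whose groups did not overlap, the subunit and assembly factor of smallest adjusted p, and Hspa9; other genes were named after their values were seen. The values of 1 member, which counts and medians include, are not reported here. Promoters are from RefSeq, build GRCm38.p6.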

Additional observations from a re-analysis of the deposited data

Results flagged for a closer look

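The effect of genotype differed between subsets, by the interaction test of limma, for 5 results on 4 Nduf genes that are named here. The effect (cKO minus WT, log2) was higher in effector than in naive cells by 0.69 for Ndufb10, 0.63 for Ndufa3 and 0.45 for Ndufb7. It was higher in memory than in naive cells by 0.65 for Ndufb7, and lower in memory than in effector cells for Ndufb6, with a difference of -0.54. The naive cKO libraries alone held reads of Y-linked genes, so the differences against naive cells cannot be told apart from sex. The effector minus naive calls were lost with TMM scaling, and that of Ndufb6 with TMM scaling (adjusted p = 0.0535 by limma), with a replicate block (0.0573) and in 10 of 12 fits without 1 library. The share of Nduf genes called in each of these comparisons was no larger than that of all genes.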

How the results depend on the processing

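No gene named by the rule above changed direction under an alternative, but medians near 0 changed sign. That of the assembly factors in WT effector against naive cells (0.02) ran between -0.064 and 0.0414 with all libraries. Without 1 library it ran between -0.081 and 0.136. Leaving out 1 library also turned the sign of the assembly factor median in cKO against WT effector (-0.049 to 0.011) and memory cells (-0.157 to 0.0072), effector minus naive (-0.039 to 0.159) and memory minus effector (-0.035 to 0.052), and of the subunit median in memory minus effector (-0.138 to 0.032). The other genotype medians kept their sign: subunits -0.303 to -0.162 in naive, -0.058 to -0.024 in effector and -0.185 to -0.026 in memory cells, and assembly factors -0.162 to -0.051 in naive cells. The counts of called Nduf genes moved by over 1.5 times in some settings; the cause was not tested. Leaving out 1 library gave 2 to 18 in naive cells (8 with all libraries), 1 to 6 in effector cells (4), 0 to 9 in memory cells (1), 0 to 5 for effector minus naive (4), 1 to 2 for memory minus naive (1) and 0 to 2 for memory minus effector (1). The fit of all 18 libraries gave 1 in effector cells, and a pseudocount of 5 gave 2 in memory cells. With TMM scaling both effector minus naive and memory minus effector gave 0, and edgeR gave 2 for memory minus naive and 2 for memory minus effector.

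Same-numbered cKO and WT libraries did not deviate together (correlations of -0.14 to 0.07), so the numbers were not taken as pairs. With a replicate block memory minus effector gave 0, naive 7, effector 4, memory 1, effector minus naive 4 and memory minus naive 1. The WT comparisons stayed within 1.5 times in every setting (32, 6 and 28 genes). Leaving out 1 library moved the median of subunits between 0.28 and 0.50 for WT effector against naive, -0.0508 and 0.14 for memory against naive, and -0.42 and -0.25 for memory against effector. Of the genes named by the rule above, 18 calls were lost in settings with all libraries. When 1 library was left out, 86 were lost and 1 gained. Calls of genes named outside the rule, such as Ndufa3 and Ndufa4 in naive cells and Ndufc2 in WT memory cells, are not in these counts. Scaling moved the median of all genes by less than 0.1 (log2) in each comparison. In effector cells the SE was 0.26 for Ndufaf6, with 57.2 normalised reads in cKO and 47.0 in WT libraries, and 0.05 for Ndufs1, with 1263.8 in cKO and 1425.4 in WT libraries; whether depth sets this difference was not tested.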
